A study of Mus musculus with 12 samples.

Results

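The probe sets described here measure the nuclear genes of the mitochondrial respiratory chain and the ATP synthase in mouse bone marrow-derived dendritic cells (BMDC) treated with poly(I:C). They were chosen by name, as every probe set of the Affymetrix Mouse 430 2.0 array that is annotated to exactly 1 gene whose symbol starts with Nduf, Uqcr, Cox4, Cox5, Cox6, Cox7, Cox8 or Atp5, or is Sdhb, Sdhc, Sdhd or Cyc1. This rule gave 176 probe sets of 90 genes, out of 18193 genes and 45037 probe sets without controls. Complex I contributed 78 probe sets of 36 genes, its assembly factors (the Ndufaf genes) 10 of 8, complex II 5 of 3, complex III 17 of 9, complex IV 35 of 17 and the ATP synthase 31 of 17. Another 10 probe sets of these families are annotated to several genes and were left out.

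Poly(I:C) is a synthetic double-stranded RNA that cells sense as they would a viral genome, and BMDC mature in response to it. RNA was taken at 1, 3, 6, 12 and 24 h of poly(I:C) and at 0 h, on 1 array per time in each of 2 experiments, so that 12 arrays were made and n = 2 at every time. All 12 samples were BMDC of C57BL/6 female mice, from the marrow of femurs and tibias, grown with GM-CSF for 6 days and selected for CD11c, and 1 mouse was used per experiment. The labels give an age of 3-4 months beside a younger age in the culture protocol, and the doses of GM-CSF and poly(I:C) in the labels differ from those in the methods. Cells cultured past 0 h in the absence of poly(I:C) were not among the 12 samples, and time in culture and poly(I:C) therefore cannot be told apart. The signal is the MAS5.0 intensity, scaled by the authors so that the trimmed mean of each array is 500.

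As background, electrons from NADH enter the chain at complex I and those from succinate at complex II. They pass through coenzyme Q, complex III and cytochrome c to oxygen at complex IV, and complexes I, III and IV pump the protons whose return drives the ATP synthase. Dendritic cells and macrophages activated through pattern receptors are known to turn towards glycolysis, with less use of oxidative phosphorylation, and complex I is also a known source of reactive oxygen species in these cells.

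Of the 176 probe sets, 157 (85 genes) passed the filter on low signal and were tested. They are bright on these arrays, and 121 of the 157 (77.1%) were among the 4504 brightest of the 22519 probe sets tested. The median signal of the tested members ranged from 3767 to 6931 over the 12 arrays, against 70.9 to 91.4 for the median of each whole array. The 19 members not tested include the only probe sets of Ndufa4l2, Ndufb4, Cox6b2, Cox7b2 and Cox8b. For these 5 genes only weak signal was listed, at most 121 on any array. Of 8 dendritic cell markers, 7 were above the array median on all 12 arrays. No marker of T cells, B cells, NK cells, erythroid cells or mast cells, basophils and eosinophils was above the median on all arrays, and 1 of 4 neutrophil markers was. The 4 macrophage markers were above it on every array and summed to 43340 to 50460 at 12 h, against 28570 to 30870 at 0 h. They did not move together. Fcgr1 gave 12030 and 8788 at 12 h, against 2190 and 1225 at 0 h, and Mertk 6953 and 4440, against 1314 and 1143. Csf1r gave 29410 and 27250, against 22490 and 25100. Adgre1 was lower in each experiment, with 2062 and 2860, against 2573 and 3406. The part of these markers in the results was not tested. In bulk RNA, fewer cells of a type and less RNA per cell cannot be told apart.

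Few members passed the test, and most of the calls were at 12 and 24 h. No member passed the test (limma, Benjamini-Hochberg adjusted p under 0.05 over all probe sets tested) at 1 h, where 0.0533% of all probe sets were called higher and 0% lower, and 1 of the 157 had an unadjusted p under 0.05. At 3 h 1 probe set, of Cox8c and below the filter level at 0 h, was called higher (1.01% of all probe sets) and none lower (0.0444%). At 6 h the same Cox8c probe set was higher (3.61% of all) and both probe sets of Ndufaf4 were lower (1.91%). At 12 h 15 probe sets of 13 genes were lower, which is 9.55% of the members against 18.4% of all probe sets. Only 1, again that of Cox8c, was higher, against 9.16% of all. At 24 h 10 probe sets of 8 genes were lower (6.37% of the members, 17.2% of all). At the same time 7 of 6 genes were higher, that of Cox8c included (4.46% of the members, 9.09% of all). With the deposited scaling and all arrays, the shares at 12 and 24 h were in both directions below those of all probe sets. This order turned for the lower calls at 12 h after quantile normalization (18.5% of the members, 14.1% of all) and without either 24 h array (29.3%, 28.2%) or both (29.3%, 28.3%). It turned at 24 h for the higher calls without the 24 h array of experiment 1 (31.8%, 13.1%) and for the lower calls without that of experiment 2 (29.3%, 16.2%).

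Between neighbouring times, 1 member was lower at 12 h than at 6 h (1.14% of all probe sets) and none higher (0.631%, with 12 members under an unadjusted p of 0.05). At 24 h 5 probe sets of 4 genes were higher than at 12 h (1.88% of all) and none lower (2.23%). By plain overlap, both 1 h arrays were above both 0 h arrays for 18 of the 157 (8.79% of all probe sets) and below for 6 (12.3%). The 3 h arrays were above for 7 (13.2%) and below for 20 (19.8%), and those of 6 h above for 6 (15%) and below for 30 (31.4%). Both 12 h arrays were below both 0 h arrays for 50 of the 157 (37.1% of all probe sets) and above for 7 (18.6% of all). Both 24 h arrays were below both 0 h arrays for 24 (32.1%) and above for 11 (18.4%).

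The count lower at 12 h depended on single arrays. It was 2 without the 0 h array of experiment 1 (7.4% of all probe sets), 5 without that of experiment 2 (7.58%), 3 when the 12 h array of experiment 1 was left out (10.6%), and 4 without that of experiment 2 (9.84%). It was 46 without the 24 h array of either experiment (28.2% of all each time), and also 46 without both, a setting chosen after seeing the data, in which 28.3% of all probe sets were lower and 12.7% higher. Of these 46 probe sets, which belong to 32 genes, 33 are of complex I (47.1% of its 70), 7 of its assembly factors (70% of 10), 3 of complex III, 2 of the ATP synthase and 1 of complex IV. At 24 h the count lower was 46 without the 24 h array of experiment 2 (16.2% of all). It was 4 when the 0 h array of experiment 1 was left out (7.73%) and 3 without that of experiment 2 (6.69%). The count higher at 24 h was 50 when the 24 h array of experiment 1 was left out (13.1% of all), and 3 without that of experiment 2 (10.2%). It was 3 when the 0 h array of experiment 1 was left out (5.1%), and 1 without that of experiment 2 (4.94%). It was also 4 without either 3 h array (7.78% and 7.76%). The count higher at 24 h than at 12 h, 5 with all arrays, was 55 without the 24 h array of experiment 1 (7.76% of all), 6 without that of experiment 2 (8.35%) and 1 without any other array (0.0266% to 0.688%).

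By complex, the medians separated at 12 h. The median log2 fold change against 0 h was -0.70 over the 10 probe sets of complex I assembly factors, -0.34 over the 70 of complex I, -0.17 over the 5 of complex II, -0.04 over the 16 of complex III, 0.05 over the 28 of complex IV and -0.13 over the 28 of the ATP synthase. Over all probe sets tested it was -0.22. With the deposited scaling, complex I and its assembly factors lay below the array as a whole and the others above it. After quantile normalization complex IV (-0.22) and the ATP synthase (-0.41) lay below the array (-0.08) as well. Complex IV also lay below the array after cyclic loess. With plain _at probe sets alone, complex III (-0.30) lay below the array too. This order of the complexes thus depended on the scaling and the probe sets used. Most members are bright, and the 4504 brightest probe sets had 12 h medians of -0.061 in experiment 1 and 0.04 in experiment 2. Complex II (-0.223 and -0.127), complex III (-0.138 and -0.035) and the ATP synthase (-0.254 and -0.055) lay below these. Complex IV (-0.048 and 0.111) did not. Differences between complexes were not tested. A log2 fold change below 0 at 12 h was found in 63.2% of all probe sets. In complex I it was so for 56 of 70 (80%), and in complex IV for 11 of 28 (39.3%). At 24 h the medians were -0.34 for the assembly factors, -0.12 for complex I, 0.00 for complex II, 0.21 for complex III, 0.20 for complex IV and -0.03 for the ATP synthase, beside -0.18 over all probe sets tested. These 24 h medians rest on single arrays. Leaving out 1 array at a time, they ranged over -0.41 to -0.04 for the assembly factors, -0.47 to 0.23 for complex I, -0.20 to 0.06 for complex II, -0.08 to 0.42 for complex III, 0.00 to 0.44 for complex IV and -0.32 to 0.27 for the ATP synthase, the lowest without the 24 h array of experiment 2 (for the assembly factors without the 0 h array of experiment 2) and the highest without the 24 h array of experiment 1.

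**Figure D1:**
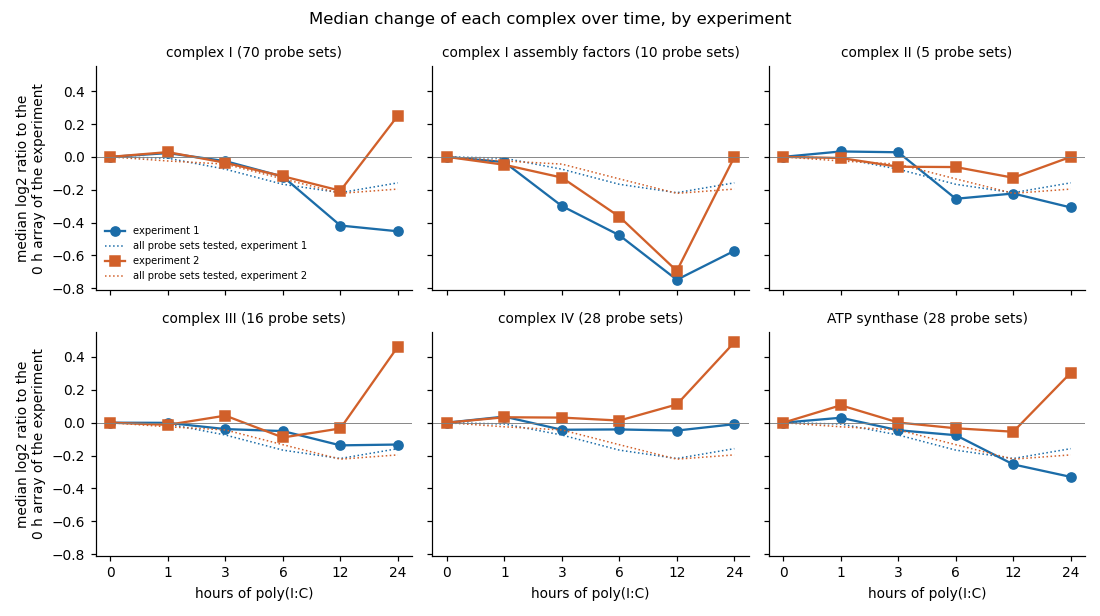
Median log2 ratio of the tested probe sets of each complex to its own experiment's 0 h array, over hours of poly(I:C). Blue circles are experiment 1 and orange squares experiment 2, and dotted lines are the medians of all probe sets tested. The 2 experiments differ before 24 h, as for the assembly factors at 3 h (-0.30 in experiment 1 and -0.13 in experiment 2) and complex I at 12 h (-0.42 and -0.21). The gaps are wider at 24 h, where the median of complex IV is -0.01 in experiment 1 and 0.49 in experiment 2.

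**Figure D2:**
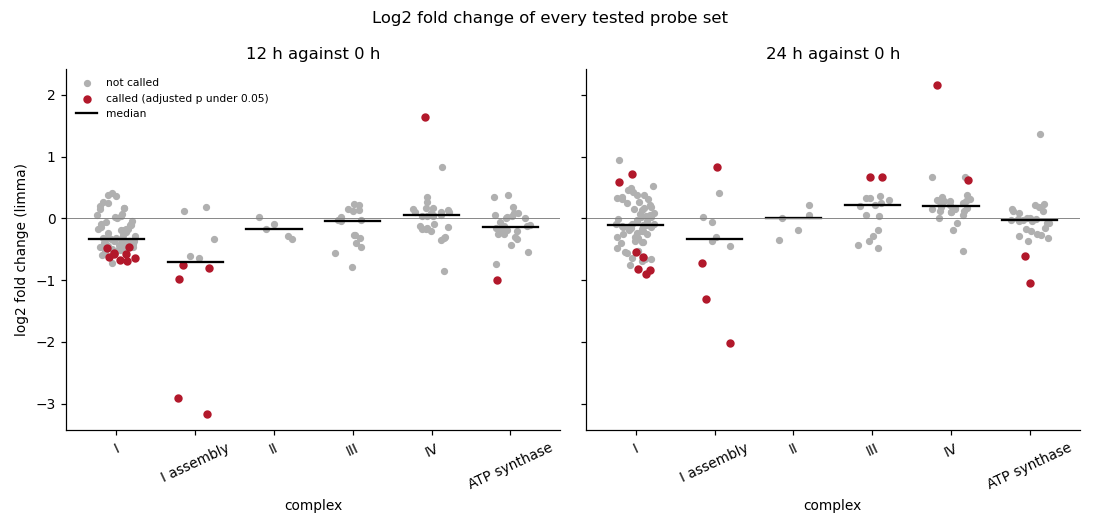
Log2 fold change of every tested probe set at 12 h (left) and 24 h (right) against 0 h, by complex. Red points passed the test, grey points did not, and black bars are medians. The 2 points near -3 at 12 h are the probe sets of Ndufaf4.

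The 24 h values differed between experiments. The median log2 ratio of the 157 members at 24 h against 0 h was -0.32 in experiment 1 and 0.32 in experiment 2, and 84 members (53.5%) were below their 0 h array in experiment 1 and above it in experiment 2, which was so for 3676 of the 22519 probe sets. Only 5 members went the other way. At 12 h the medians were -0.30 and -0.09 in experiments 1 and 2. The ATP synthase was split most often at 24 h, with 23 of 28 probe sets (82.1%) down in experiment 1 and up in experiment 2, and no probe set up in both. Bright probe sets as a whole shared the rise of experiment 2 in part, and hardly the fall of experiment 1. Over the 4504 brightest the median ratio at 24 h was -0.025 in experiment 1 and 0.09 in experiment 2. Among the 2252 brightest probe sets, which hold 98 of the members, the median ratio at 24 h was -0.02 in experiment 1 and 0.29 in experiment 2, against -0.25 and 0.40 for those 98 members. The 24 h array of experiment 2 also had the highest 99th percentile of signal of the 12 arrays, 21110, where the others had 13350 to 19260. The part of this brightness in the results was not tested.

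**Figure D3:**
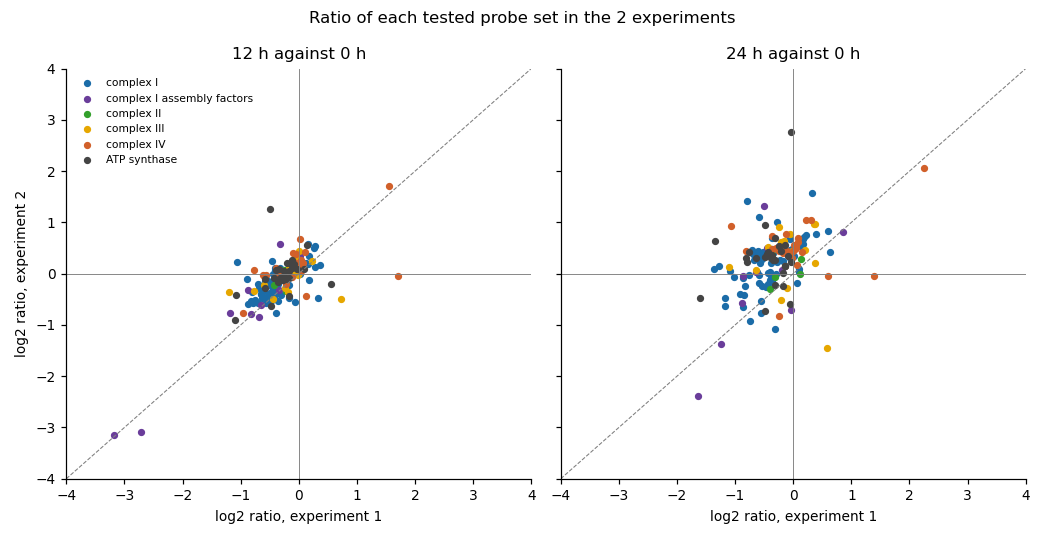
Log2 ratio of each tested probe set to 0 h in experiment 1 (horizontal) and experiment 2 (vertical), at 12 h (left) and 24 h (right), coloured by complex. The dashed line marks equal ratios. At 24 h 84 of the 157 points lie at the upper left, down in experiment 1 and up in experiment 2.

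The largest change among the members was in Ndufaf4, which encodes an assembly factor that in human cells acts with NDUFAF3 in building complex I and is not part of the finished enzyme. In order of 0, 1, 3, 6, 12 and 24 h, its brighter probe set (1427997_at) gave signals of 1861, 1718, 1108, 583, 190 and 776 in experiment 1 and 1629, 1376, 819, 578, 170 and 623 in experiment 2. Both arrays at every time from 3 h lay below both 0 h arrays, the lowest signals were those of 12 h, and those of 24 h lay between. The log2 fold change was -1.56 ± 0.18 (SE), adjusted p = 0.000599, -3.17 ± 0.18 (SE), adjusted p = 2.03e-06 and -1.30 ± 0.18 (SE), adjusted p = 0.000755 at 6, 12 and 24 h against 0 h. It fell further by 1.61 on the log2 scale at 12 h against 6 h (adjusted p = 0.0118), a call lost without either 6 h array or the 12 h array of experiment 2 (adjusted p up to 0.268), and was 1.86 ± 0.18 (SE), adjusted p = 0.00267 at 24 h against 12 h. The second probe set (1435333_at) gave 420, 428, 246, 54.3, 50.2 and 124 in experiment 1 and 502, 481, 273, 161, 44.8 and 82.9 in experiment 2. On the log2 scale the change was -2.91 ± 0.39 (SE), adjusted p = 0.000523 at 12 h and -2.01 ± 0.39 (SE), adjusted p = 0.00415 at 24 h. The falls at 12 and 24 h passed under every alternative tried, for both probe sets. So did the fall at 6 h for the first, while that of the second was lost without either 0 h array or the 6 h array of experiment 1 (adjusted p up to 0.131).

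Ndufaf3, the partner of Ndufaf4, rose at 24 h. Its signals were 889, 935, 869, 824, 903 and 1629 in experiment 1 and 1320, 1237, 1396, 1373, 1672 and 2337 in experiment 2. At 24 h both arrays, 1629 and 2337, were above both 0 h arrays, 889 and 1320, and the log2 fold change was 0.84 ± 0.18 (SE), adjusted p = 0.00662. At 12 h it was 0.18 ± 0.18 (SE), adjusted p = 0.49 and did not pass. The 24 h call was lost on leaving out the 0 h array of experiment 2 (adjusted p = 0.0665).

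3 further assembly factors fell at 12 h. Ndufaf6 gave 126 and 156 at 12 h, against 307 and 278 at 0 h (-0.98 ± 0.25 SE, adjusted p = 0.017). Ndufaf7, which in human cells is a methyltransferase acting on a core subunit of complex I, gave 298 and 278 at 12 h, against 485 and 512 at 0 h (-0.76 ± 0.21 SE, adjusted p = 0.0243). Ndufaf8, which in human cells is a partner of NDUFAF5, gave 1107 and 1352 at 12 h, against 1963 and 2343 at 0 h (-0.80 ± 0.22 SE, adjusted p = 0.0238). In each the 12 h and 0 h arrays did not overlap, and each of these 12 h calls was lost when any of the 0 h or 12 h arrays was left out (adjusted p up to 0.152). Ndufaf7 was also lower at 24 h (-0.73 ± 0.21 SE, adjusted p = 0.0304), a call lost in 7 of 12 fits that left out 1 array (adjusted p up to 0.157), whereas Ndufaf6 and Ndufaf8 were not called then. The second Ndufaf8 probe set (1448003_at) gave 0.13 ± 0.38 (SE), adjusted p = 0.837 at 12 h. Ndufaf1, Ndufaf2 and Ndufaf5 did not pass at any time, with log2 fold changes of -0.64, -0.33 and -0.60 at 12 h. All 10 assembly factor probe sets had a log2 fold change above 0 at 24 h against 12 h, of 0.03 to 1.86, of which 1, that of Ndufaf4, passed. In this comparison 26.8% of the 157 members and 47.5% of all probe sets were below 0.

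The subunits of complex I showed smaller values. The 6 core subunit genes measured encode proteins of the peripheral arm, which holds the flavin and the iron-sulfur clusters, and their 16 probe sets had a median log2 fold change of -0.44 at 12 h. For 11 of the 16, both 12 h arrays lay below both 0 h arrays (37.1% of all probe sets). Only 1 of the 16 passed (6.25%, against 18.4% of all probe sets lower). That was Ndufs7, an iron-sulfur subunit beside the coenzyme Q site, with signals of 3153, 3071, 2908, 2672, 1946 and 3176 in experiment 1 and 3642, 3721, 3494, 3354, 2998 and 4616 in experiment 2. The log2 fold change was -0.49 ± 0.16 (SE), adjusted p = 0.0465 at 12 h. Its 24 h arrays were back within or above the range of 0 h, with 0.66 ± 0.16 (SE), adjusted p = 0.0491 at 24 h against 12 h. Both Ndufs7 calls were of 1 probe set (1424313_a_at) and were lost in 10 of 12 fits that left out 1 array (adjusted p up to 0.276 and 0.252). The other Ndufs7 probe set (1451312_at) did not pass at any time. Of the other core subunits none passed at 12 h. Ndufs3 had a log2 fold change above 0 (0.36), and the rest had -0.73 for Ndufs1, -0.44 to -0.53 for the 3 probe sets of Ndufv1, which oxidises NADH, -0.28 to -0.36 for the 3 of Ndufv2 and -0.17 to -0.53 for the 6 of Ndufs8.

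Ndufs3, a core subunit of the same arm, rose at 24 h. Its signals were 3538, 3297, 3119, 3720, 3938 and 5365 in experiment 1 and 4388, 4384, 4357, 4905, 6526 and 7823 in experiment 2, highest at 24 h in both. On the log2 scale the change was 0.36 ± 0.15 (SE), adjusted p = 0.101 at 12 h and 0.72 ± 0.15 (SE), adjusted p = 0.00675 at 24 h, where both arrays lay above both 0 h arrays. The call was lost without the 0 h array of experiment 2 (adjusted p = 0.082). Ndufs4, an accessory subunit of the same arm, rose alongside it in its bright probe set (1448959_at), with 2184, 2462, 2294, 2334, 2633 and 2882 in experiment 1 and 3368, 3408, 3490, 3665, 4746 and 5797 in experiment 2. The log2 fold change was 0.59 ± 0.17 (SE), adjusted p = 0.0267 at 24 h. The 24 h arrays overlap those of 0 h there (2882 and 5797 at 24 h, against 2184 and 3368 at 0 h), and the call was lost without either 0 h array or the 24 h array of experiment 2 (adjusted p up to 0.165). A dim Ndufs4 probe set (1418117_at) gave -0.76 ± 0.29 (SE), adjusted p = 0.079, in the opposite direction, without passing.

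Among the accessory subunits of complex I, 53 probe sets were tested, and their median at 12 h was -0.30. At that time 7 were lower (13.2%, against 18.4% of all probe sets) and none higher (9.16% of all). Ndufb10, a small protein on the intermembrane side, gave 3478, 3413, 3542, 2721, 2002 and 2579 in experiment 1 and 3625, 3715, 3918, 3202, 2420 and 3154 in experiment 2. Its log2 fold change was -0.69 ± 0.15 (SE), adjusted p = 0.00662 at 12 h and -0.31 ± 0.15 (SE), adjusted p = 0.139 at 24 h, and the 12 h call was lost only without the 0 h array of experiment 1 among the arrays left out in turn (adjusted p = 0.0755). Ndufa8, also on the intermembrane side, gave 5031, 4486, 4337, 4347, 3093 and 3412 in experiment 1 and 6345, 6613, 5846, 5284, 4260 and 4398 in experiment 2. It was lower at both late times, with -0.64 ± 0.14 (SE), adjusted p = 0.00821 at 12 h and -0.54 ± 0.14 (SE), adjusted p = 0.0177 at 24 h. The 12 h call was lost without the 0 h or the 12 h array of experiment 1 (adjusted p up to 0.0761) and the 24 h call without either 0 h array (adjusted p up to 0.121).

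Ndufab1 encodes the mitochondrial acyl carrier protein, which serves fatty acid synthesis as well as complex I. Its brightest probe set (1428159_s_at) fell at 12 h and was not called at 24 h, and its other tested probe sets (1428160_at and 1435934_at) did not pass at any time. The brightest gave 2658 and 3362 at 12 h, against 4480 and 4802 at 0 h (-0.63 ± 0.17 SE, adjusted p = 0.0186), and -0.03 ± 0.17 (SE), adjusted p = 0.932 at 24 h. Ndufa5 fell in both of its probe sets at 12 h, by 0.68 and 0.58 on the log2 scale (adjusted p = 0.0397 and 0.0364), and in the second of them at 24 h (-0.63 ± 0.18 SE, adjusted p = 0.0264). Ndufb9 (-0.47, adjusted p = 0.0352) and Ndufc1 (-0.56, adjusted p = 0.019) were lower in 1 of their 2 probe sets tested at 12 h, and the other gave -0.35 and -0.47. All 5 of these 12 h calls were lost without any 1 of the 0 h and 12 h arrays (adjusted p up to 0.302), and those of Ndufb9 and the first Ndufa5 probe set without any array but those of 24 h. The 24 h call of Ndufa5 was lost without either 0 h array (adjusted p up to 0.217).

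Ndufb2, of the membrane arm, was lower at 24 h in its 2 bright probe sets. The first (1448483_a_at) gave 1493 and 2812 at 24 h, against 3384 and 3932 at 0 h (-0.83 ± 0.22 SE, adjusted p = 0.02), and the second (1416834_x_at) 1017 and 2020 at 24 h, against 2305 and 3147 at 0 h (-0.90 ± 0.20 SE, adjusted p = 0.0094). Neither overlapped between the times, and both calls were lost without either 0 h array (adjusted p up to 0.106). Ndufa4, first purified with complex I and since assigned to complex IV, was lower at both late times, with 1766, 1551, 1517, 1658, 1187 and 1049 in experiment 1 and 1852, 1350, 1273, 1645, 1236 and 975 in experiment 2. Its log2 fold change was -0.57 ± 0.17 (SE), adjusted p = 0.0276 at 12 h and -0.83 ± 0.17 (SE), adjusted p = 0.00522 at 24 h, and among single arrays the 24 h call was lost only without the 0 h array of experiment 2 (adjusted p = 0.0668). The 12 h call was lost without any 1 of the 0 h and 12 h arrays (adjusted p up to 0.192). Other accessory subunits had values above 0, such as Ndufa13, with 0.53 ± 0.18 (SE), adjusted p = 0.0578 at 24 h, and Ndufa1, with 0.34 ± 0.14 (SE), adjusted p = 0.11.

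**Figure D4:**
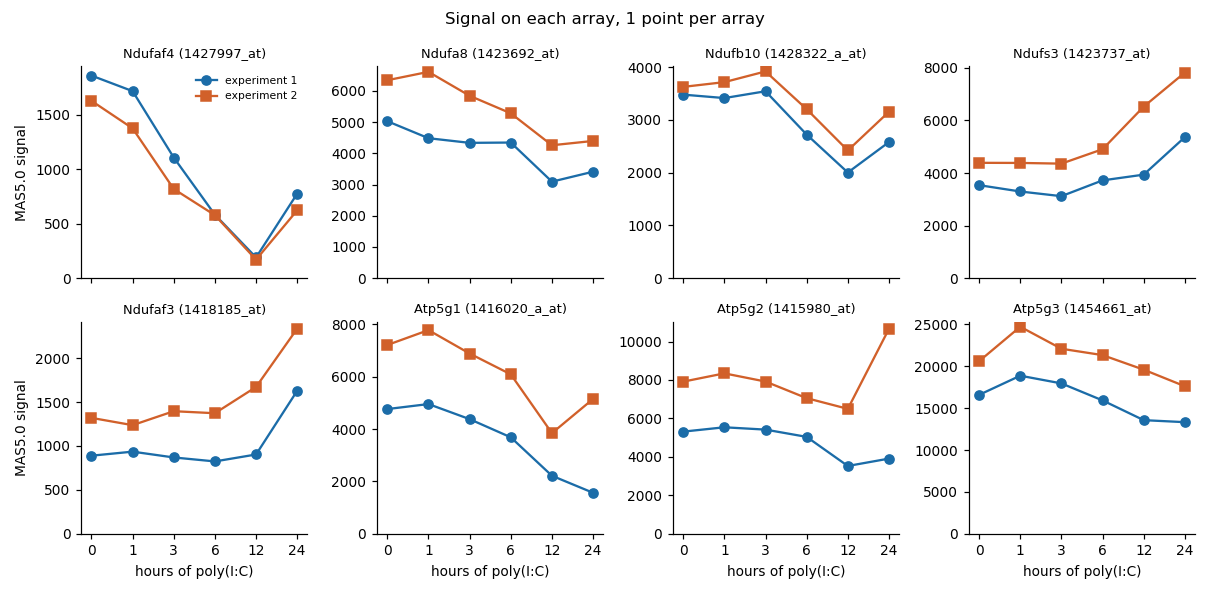
MAS5.0 signal on each array for 8 probe sets, over hours of poly(I:C), with 1 point per array, blue for experiment 1 and orange for experiment 2. Ndufaf4 falls to 190 and 170 at 12 h, while Ndufs3 and Ndufaf3 are highest at 24 h. Of the c subunit genes, Atp5g1 is lower at 12 and 24 h and Atp5g2 and Atp5g3 did not pass the test.

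Complex II also works in the tricarboxylic acid cycle, and its members here are Sdhb, Sdhc and Sdhd, since Sdha is outside the naming rule. None of its 5 probe sets passed at any time. The unadjusted p was under 0.05 for 1 of them at 6 h, and for 1 at 24 h against 12 h. Sdhb, its iron-sulfur subunit, gave 8246, 8144, 7718, 7542, 7922 and 9017 in experiment 1 and 10160, 11470, 10380, 9732, 10880 and 12460 in experiment 2. Its log2 fold change was 0.02 ± 0.13 (SE), adjusted p = 0.926 at 12 h and 0.21 ± 0.13 (SE), adjusted p = 0.258 at 24 h. The membrane anchors Sdhc and Sdhd gave -0.09 and -0.28 at 12 h and -0.19 and 0.06 at 24 h in their brighter probe sets.

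In complex III no probe set passed at 12 h (18.4% of all probe sets were lower and 9.16% higher). At 24 h 2 of 16 were higher (12.5%, against 9.09% of all), both of Uqcr10, a small subunit. Its first (1434341_x_at) gave 1643, 1664, 1686, 1672, 1623 and 2143 in experiment 1 and 1821, 1590, 1941, 1660, 1784 and 3564 in experiment 2. On the log2 scale the change was 0.67 ± 0.20 (SE), adjusted p = 0.0339 at 24 h. The second (1434340_at) gave 0.67 ± 0.21 (SE), adjusted p = 0.0416 at 24 h against 0 h and 0.94 ± 0.21 (SE), adjusted p = 0.0397 at 24 h against 12 h. Both were above the 0 h arrays at 24 h on both arrays, and more so in experiment 2. The third and brightest (1424364_a_at) did not pass, with 0.24 ± 0.21 (SE), adjusted p = 0.429. The Uqcr10 calls at 24 h were lost in 8 or 9 of 12 fits that left out 1 array (adjusted p up to 0.217), the 24 h array of experiment 2 among them, and that against 12 h in 10 of 12 (adjusted p up to 0.203). Cyc1, cytochrome c1, gave -0.47 ± 0.17 (SE), adjusted p = 0.0641 at 12 h and -0.36 ± 0.17 (SE), adjusted p = 0.144 at 24 h, the Rieske protein gene Uqcrfs1 0.24 and -0.29, and the core proteins Uqcrc1 -0.41 and -0.19 and Uqcrc2 0.21 and 0.21 in its brighter probe set. Of the small subunits, Uqcr11 gave 2198 and 4042 at 12 h, against 3782 and 5133 at 0 h (-0.56 ± 0.26 SE, adjusted p = 0.137), and Uqcrb 27220 and 43440 at 24 h, against 23680 and 31700 at 0 h (0.33 ± 0.14 SE, adjusted p = 0.109). Neither passed.

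Complex IV, counted without Ndufa4, which is grouped here under complex I, had no lower call at any time. The log2 fold changes of its widely expressed subunits at 12 h were 0.06 for Cox4i1, 0.26 for Cox6a1, 0.11 for Cox6b1, 0.05 for Cox7a2 and -0.17 for Cox8a. Cox5a gave 0.35 ± 0.20 (SE), adjusted p = 0.22 at 12 h. Cox7c, by its only tested probe set, was dim, with 119 and 330 at 24 h, against 266 and 166 at 0 h (-0.07 ± 0.52 SE, adjusted p = 0.937), and its experiments went opposite ways. At 12 h its log2 fold change was -0.86, the lowest of complex IV, and did not pass. Without both 24 h arrays Cox7c was called lower at 12 h (28.3% of all probe sets), the 1 of complex IV among the 46. At 24 h the experiments parted, as for Cox4i1 with 13490 and 24750 at 24 h, against 15520 and 17330 at 0 h, and Cox8a with 5780 and 14590 at 24 h, against 5742 and 9946 at 0 h. Cox7a2l encodes a relative of Cox7a2 that links complexes III and IV in supercomplexes, and C57BL/6 mice, the strain used here, are known to carry a shortened form. Its brightest probe set (1421772_a_at) gave 4157, 4375, 4008, 3034, 2809 and 4834 in experiment 1 and 4612, 5111, 5276, 4034, 4517 and 9500 in experiment 2. It was lower at 12 h than at 0 h in both experiments, and at 24 h both arrays were above every earlier one but 2 of experiment 2, with 0.63 ± 0.20 (SE), adjusted p = 0.0427 against 0 h and 0.93 ± 0.20 (SE), adjusted p = 0.0367 against 12 h. The other 2 gave 0.68 and 0.38 at 24 h against 0 h, and the first of these 1.00 ± 0.23 (SE), adjusted p = 0.0431 against 12 h. These calls were lost in 10 or 11 of 12 fits that left out 1 array (adjusted p up to 0.308 for 24 h against 0 h and 0.253 against 12 h).

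The tissue-restricted isoforms of complex IV stayed dim. Cox4i2, Cox6a2 and Cox7a1 gave signals of at most 137, 425 and 197 on any array, and none passed. Cox8c, known mainly from testis, had 1 probe set called higher from 3 h on (1443789_x_at), with 24.8, 181, 145, 79.7, 104 and 179 in experiment 1 and 11.8, 70.2, 134, 82.7, 75.3 and 99.8 in experiment 2. Its 0 h signals, 24.8 and 11.8, were below the median signal of their arrays, 83.1 and 77.8, and on the log2 scale it averaged 5.07 at 0 h and 6.65 over all arrays, beside a filter level of 6.42. It passed that filter only through the arrays after 0 h, the 1 called member of which this holds, and no fold change is given. The _x_ in its name marks probes that can bind other transcripts too. The call at 24 h held in all 12 fits that left out 1 array. Those fits kept the same filter, so this gives no support for a rise. The calls at 3, 6 and 12 h were lost in 4, 9 and 4 of them (adjusted p up to 0.289, 0.251 and 0.0688), the 0 h arrays of both experiments among them each time. The brighter Cox8c probe set (1455167_at) did not pass, with -0.54 ± 0.27 (SE), adjusted p = 0.174 at 24 h.

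In the ATP synthase 1 gene fell at 12 h and 2 at 24 h, and none rose. By probe set these were 3.57% and 7.14% of the 28 tested, against 18.4% and 17.2% of all probe sets. 3 genes, Atp5g1, Atp5g2 and Atp5g3, encode the same mature c subunit of the rotor ring with different import sequences. Atp5g1 gave 4762, 4953, 4377, 3683, 2215 and 1564 in experiment 1 and 7209, 7778, 6883, 6088, 3842 and 5149 in experiment 2. Its 12 and 24 h arrays were the 2 lowest in each experiment, and the log2 fold change was -1.002 ± 0.25 (SE), adjusted p = 0.014 at 12 h and -1.04 ± 0.25 (SE), adjusted p = 0.0122 at 24 h. The arrays of 24 h overlap those of 0 h in level (1564 and 5149 at 24 h, against 4762 and 7209 at 0 h), and experiment 2 gave the higher signal at every time. The 12 h call was lost without the 0 h array of experiment 1 or either 12 h array (adjusted p up to 0.119) and the 24 h call without the 0 h array of experiment 1 (adjusted p = 0.105). Atp5g2 gave 5312, 5538, 5417, 5039, 3525 and 3909 in experiment 1 and 7912, 8343, 7917, 7053, 6496 and 10660 in experiment 2. On the log2 scale the change was -0.44 ± 0.22 (SE), adjusted p = 0.173 at 12 h and -0.01 ± 0.22 (SE), adjusted p = 0.989 at 24 h. Atp5g3 gave 16590, 18880, 17960, 15930, 13570 and 13330 in experiment 1 and 20610, 24730, 22100, 21340, 19600 and 17620 in experiment 2. The log2 fold change was -0.18 ± 0.12 (SE), adjusted p = 0.311 and -0.27 ± 0.12 (SE), adjusted p = 0.136. The difference between Atp5g1 and the other two was not tested.

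Of the remaining ATP synthase genes, 1 was called. Atp5a1, the alpha subunit of the catalytic head, was lower at 24 h in 1 of 3 probe sets (1449710_s_at), with 6505 and 5965 at 24 h, against 9166 and 9835 at 0 h (-0.61 ± 0.15 SE, adjusted p = 0.0123), a call lost without either 0 h array (adjusted p up to 0.102). Its brightest probe set (1423111_at) gave -0.20 ± 0.13 (SE), adjusted p = 0.271. Atp5b, the beta subunit, stayed within 16580 and 22000 on all 12 arrays, with 0.08 ± 0.14 (SE), adjusted p = 0.707 at 12 h. Several small subunits were lower in experiment 1 and higher in experiment 2 at 24 h, such as Atp5e of the head, with 4137 and 11170 at 24 h against 5797 and 5757 at 0 h, and Atp5h of the peripheral stalk, with 8836 and 23380 at 24 h against 11030 and 14530 at 0 h. Neither passed. Atp5d of the head gave 0.09 ± 0.18 (SE), adjusted p = 0.751 at 12 h, Atp5j of the peripheral stalk -0.26 ± 0.17 (SE), adjusted p = 0.302, and Atp5md, a small membrane subunit, 6697 and 5973 at 12 h, against 9288 and 9205 at 0 h (-0.55 ± 0.37 SE, adjusted p = 0.308).

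Promoters are shown for the 3 c subunit genes, of which 1 fell, and for 3 complex I genes that fell (Ndufaf4) or rose (Ndufaf3, Ndufs3). They were taken from RefSeq (build GRCm38.p6), run 5′ to 3′ on the strand of the gene from 250 bases before to 50 bases after its start, and capitals mark matches to the motifs searched. These were the cores CCGGAAG of ETS factors such as GABP, GCATGCG of NRF1 and AAGATGG of YY1, factors known for many nuclear respiratory genes, searched on both strands.
Atp5g1, chr11:96075582-96075881, minus strand: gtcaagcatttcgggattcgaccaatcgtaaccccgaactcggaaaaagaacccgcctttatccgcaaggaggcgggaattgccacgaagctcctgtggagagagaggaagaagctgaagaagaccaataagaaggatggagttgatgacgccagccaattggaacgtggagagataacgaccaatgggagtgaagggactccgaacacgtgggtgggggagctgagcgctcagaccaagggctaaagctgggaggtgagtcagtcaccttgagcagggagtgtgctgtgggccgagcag
Atp5g2, chr15:102670998-102671297, minus strand: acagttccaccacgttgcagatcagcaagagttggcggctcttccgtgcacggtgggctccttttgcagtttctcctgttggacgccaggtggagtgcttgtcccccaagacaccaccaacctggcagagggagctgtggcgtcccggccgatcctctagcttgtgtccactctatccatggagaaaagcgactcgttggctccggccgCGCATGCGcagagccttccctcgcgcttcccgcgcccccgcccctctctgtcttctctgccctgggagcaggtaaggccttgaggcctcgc
Atp5g3, chr2:73911277-73911576, minus strand: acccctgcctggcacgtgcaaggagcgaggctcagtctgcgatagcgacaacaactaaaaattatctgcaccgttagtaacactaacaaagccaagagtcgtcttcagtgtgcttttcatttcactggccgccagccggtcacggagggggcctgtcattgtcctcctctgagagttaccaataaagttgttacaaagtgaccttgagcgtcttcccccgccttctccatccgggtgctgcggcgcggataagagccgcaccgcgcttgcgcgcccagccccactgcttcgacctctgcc
Ndufaf4, chr4:24897833-24898132, plus strand: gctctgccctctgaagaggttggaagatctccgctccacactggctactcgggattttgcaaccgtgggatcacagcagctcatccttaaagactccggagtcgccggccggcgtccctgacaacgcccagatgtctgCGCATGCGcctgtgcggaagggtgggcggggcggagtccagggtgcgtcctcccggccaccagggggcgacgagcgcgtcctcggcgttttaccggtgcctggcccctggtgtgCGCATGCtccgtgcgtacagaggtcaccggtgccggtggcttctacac
Ndufaf3, chr9:108567387-108567686, minus strand: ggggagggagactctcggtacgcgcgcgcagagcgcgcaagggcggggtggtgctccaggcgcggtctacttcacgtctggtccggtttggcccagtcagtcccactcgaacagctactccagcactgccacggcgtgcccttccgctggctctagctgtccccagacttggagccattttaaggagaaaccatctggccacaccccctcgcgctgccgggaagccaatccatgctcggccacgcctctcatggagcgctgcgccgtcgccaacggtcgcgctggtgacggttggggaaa
Ndufs3, chr2:90904672-90904971, minus strand: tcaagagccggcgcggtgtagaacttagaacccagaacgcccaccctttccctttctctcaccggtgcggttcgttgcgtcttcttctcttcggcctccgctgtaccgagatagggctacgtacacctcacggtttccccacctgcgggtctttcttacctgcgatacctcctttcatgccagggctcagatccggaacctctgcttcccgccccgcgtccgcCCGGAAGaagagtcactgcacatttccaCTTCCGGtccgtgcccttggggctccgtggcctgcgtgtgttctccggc

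Of these promoters, that of Ndufaf4 holds NRF1 core matches at 2 places and that of Atp5g2 at 1, and where the core overlaps its own reverse complement it matches on both strands. That of Ndufs3 holds 2 ETS matches. No match was found in those of Atp5g1, Atp5g3 and Ndufaf3, which says only that these letters are not in the window. Of the 90 member genes, 73 had a promoter in the table. The ETS core was in 18 of 73 (24.7%), against 9.12% of all 27025 promoters, the NRF1 core in 11 (15.1%, against 3.64%) and the YY1 core in 10 (13.7%, against 6.48%), and 33 of 73 (45.2%) held at least 1 of the 3, against 17.7% of all. The members' share was the higher one for each core. These shares are a description and were not tested.

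Genes that serve the chain without being part of it were set beside the members, with 1 probe set per gene. Calls of genes outside the members were not tried with arrays left out, without the block or under other scalings. For their counts, 18.4% of all probe sets were lower and 9.16% higher at 12 h, and 17.2% lower and 9.09% higher at 24 h. Of 14 genes of electron carriers and coenzyme Q synthesis, 5 were lower at 12 h and 3 at 24 h and none higher. They include Coq9, at 513 and 468 at 12 h, against 957 and 1029 at 0 h (-0.99 ± 0.20 SE, adjusted p = 0.00471), and Etfb, at 1399 and 2395 at 12 h, against 3192 and 5916 at 0 h (-1.24 ± 0.19 SE, adjusted p = 0.00119), the beta subunit of the electron transfer flavoprotein that feeds electrons from fatty acid oxidation to coenzyme Q. Cytochrome c, Cycs, gave 0.57 ± 0.21 (SE), adjusted p = 0.0662 at 12 h. At 12 h 7 of 25 other assembly factors were lower and 4 higher. At 24 h 4 of them were lower, and 5 higher. Sco2, a copper chaperone of complex IV, gave 144 and 76.2 at 12 h, against 802 and 596 at 0 h (-2.54 ± 0.33 SE, adjusted p = 0.000441), and Lrpprc, which stabilises mitochondrial mRNAs, 224 and 148 at 12 h, against 871 and 829 at 0 h (-2.12 ± 0.52 SE, adjusted p = 0.013). Surf1, needed to build complex IV, gave 2901 and 3189 at 24 h, against 1128 and 1388 at 0 h (1.27 ± 0.16 SE, adjusted p = 0.000438), and Cox17, which brings copper to it, 11800 and 15630 at 24 h, against 8079 and 7741 at 0 h (0.78 ± 0.15 SE, adjusted p = 0.00473).

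Of 14 regulators of mitochondrial gene expression, 6 were lower at 12 h (18.4% of all probe sets) and 6 at 24 h (17.2%), and none higher. Tfb2m, a factor of mitochondrial transcription, gave 337 and 338 at 12 h, against 1477 and 1149 at 0 h (-1.90 ± 0.21 SE, adjusted p = 0.000155), and was also lower at 6 h (-1.27 ± 0.21 SE, adjusted p = 0.00506). Pprc1, a coactivator related to PGC-1, gave 374 and 118 at 12 h, against 1037 and 673 at 0 h (-1.90 ± 0.33 SE, adjusted p = 0.00231). Nrf1 gave -0.16 ± 0.23 (SE), adjusted p = 0.654 at 12 h and Tfam -0.29 ± 0.19 (SE), adjusted p = 0.291, and neither passed, while Gabpa, whose product binds the ETS core, passed at 24 h (-1.55 ± 0.33 SE, adjusted p = 0.00691). Of 9 carriers and inhibitors, such as the ADP/ATP carriers Slc25a4 and Slc25a5, none passed at 12 h and 1, Higd2a, was higher at 24 h (0.53 ± 0.15 SE, adjusted p = 0.0266).

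The calls were checked against the scaling of the arrays, since the members are bright and each array was scaled by 1 factor. The median log2 fold change of all members at 12 h was -0.18 as deposited, -0.09 with median-centred arrays, -0.36 after quantile normalization and -0.23 after cyclic loess. At 24 h it was -0.01 as deposited, 0.12, -0.17 and -0.03 in the same order, and so its sign depended on the scaling. The count lower at 12 h was 15 as deposited (18.4% of all probe sets) and 9, 29 and 9 in that order (13.8%, 14.1% and 11.1% of all). The members' share was thus above that of all probe sets after quantile normalization and below it under the others. At 24 h 10 were lower and 7 higher as deposited (17.2% and 9.09% of all), 6 and 10 with median-centred arrays (11.9% and 10.6%), 19 and 6 after quantile normalization (14.4% and 10.7%) and 11 and 9 after cyclic loess (12.2% and 12.1%). The scalings also moved the array as a whole, whose median at 12 h was -0.22 as deposited and -0.14, -0.08 and 0.00 in that order. Under quantile normalization 8 ATP synthase probe sets were lower at 12 h, and complex IV without Ndufa4 had none. The median of complex IV at 12 h, 0.05 as deposited, was -0.22 after quantile normalization and -0.09 after cyclic loess.

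**Figure D5:**
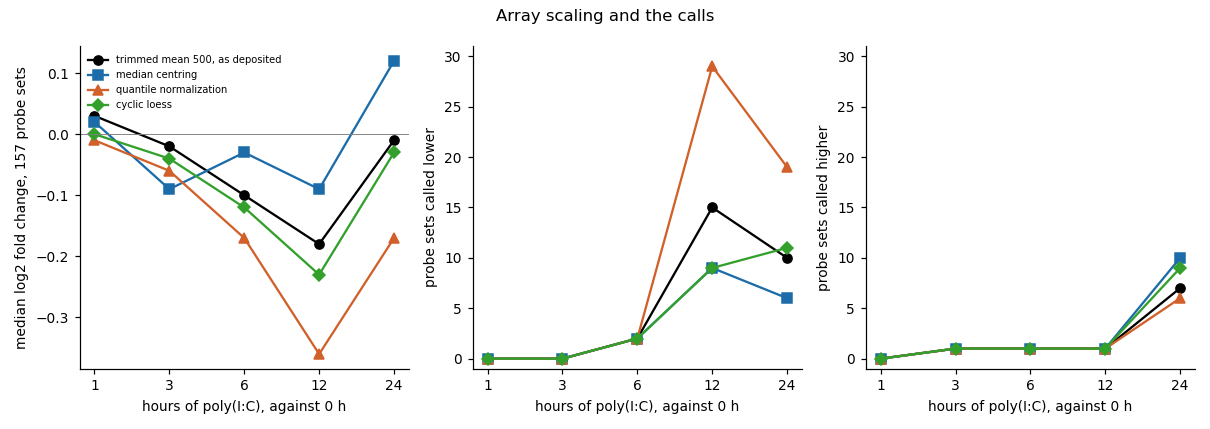
Median log2 fold change of the 157 tested members against 0 h (left), and the numbers called lower (middle) and higher (right), over hours of poly(I:C), for the deposited scaling and 3 others. At 12 h 9 to 29 members were called lower, depending on the scaling.

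Of the 43 calls in all comparisons, 27 passed under all 3 other scalings, those of the Cox8c probe set, which was below the filter level at 0 h, included. At 12 h these were Ndufaf4 (both probe sets), Ndufb10, Ndufa8, Ndufab1, Atp5g1 and Cox8c. At 24 h they were Ndufaf4 and Ndufb2 (2 probe sets each), Ndufa4 and Atp5g1 on the lower side, and Ndufaf3, Ndufs3, Ndufs4, Uqcr10 (2 probe sets) and Cox8c on the higher side. Without the experiment as a block, 11 of the 43 passed, which were the 6 of Ndufaf4 against 0 h and those of Ndufaf6 and Ndufb10 at 12 h, Ndufa4 at 24 h and Cox8c at 12 and 24 h. In that fit none of all probe sets tested passed at 12 h against 6 h or at 24 h against 12 h. The Cox8c probe set passed the filter only through arrays after 0 h, so its passing here gives no support for a rise. The assembly factors' median at 12 h, -0.70 as deposited, was -0.40 after quantile normalization and -0.35 after cyclic loess.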

How the data were processed

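RNA of 12 BMDC samples was hybridised to Affymetrix Mouse 430 2.0 arrays, and the authors deposited MAS5.0 signal intensity per probe set, scaled per array to a trimmed mean of 500 (2% trimmed at each end). Each experiment was run separately. The table holds 45101 probe sets, of which 64 controls were left out. The 22519 probe sets whose mean of log2(signal + 16) was at or above its median were tested. limma 3.58.1 (R 4.3.3) was fitted with time and experiment as terms, since the methods took ratios to the 0 h array within an experiment, with an intensity trend and 5 residual and 5.22 prior degrees of freedom. Samples of 1 experiment came from 1 mouse, and their deviations correlated at 0.25 to 0.66 over 15 pairs of times. P-values were adjusted by Benjamini-Hochberg over all probe sets tested and called under 0.05. The number of arrays, n = 2 at each time, limits the precision. Probe sets were named from the platform annotation, in which 34945 have 1 gene symbol, 932 several and 9160 none. Named by rule were the 4 genes of each complex with the smallest p at 12 h and at 24 h, the 3 members with the largest change in each direction at 6, 12 and 24 h, every gene called higher, and tissue-restricted isoforms with their counterparts. A gene was given by its brightest tested probe set, and by most others where calls differed. Tested probe sets of Ndufb2 (1442658_at), Ndufs4 (1438166_x_at) and Atp5a1 (1420037_at) were not called, and their values are not given. Atp5b, Cox7b2, Ndufa1, Ndufa5, Ndufaf1, Ndufaf2, Ndufaf5, Ndufaf7, Ndufaf8, Ndufb4, Ndufb9, Ndufc1, Ndufs1, Ndufs7, Ndufs8, Ndufv1 and Ndufv2 are outside this rule and were named after their values were seen, as were the genes picked from the lists, which have 1 probe set per gene. The members and lists were chosen with earlier results of these data known. The fit was tested on simulated data. Alternatives covered pseudocount, filter, scaling, block, trend, probe set choice and arrays left out.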

Additional observations from a re-analysis of the deposited data

How the results depend on the processing

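Of 1263 values for a comparison under an alternative, 1117 stayed near the value reported (a count within 1.5 times it, a median within the spread between replicates) and 146 moved further, and the cause was not tested. With a pseudocount of 64, 0 members were higher at 6 h (845 of all 22519 probe sets). Without a filter 0 were higher at 3 and at 6 h and 1 at 24 h against 12 h (212, 715 and 199 of all 45037). With the 11260 brightest probe sets alone, 1 was lower and 0 higher at 3 h (9 and 230 of the 11260). At 6 h 1 was lower and 0 higher (395 and 747), and at 12 h 0 were higher (1708). The median of assembly factors at 6 h was then -0.36. With median centring 9 were lower at 12 h and 6 at 24 h, and medians were -0.09 for complex III and -0.08 for the ATP synthase at 3 h and 0.13 for complex II at 24 h. After quantile normalization 29 were lower at 12 h and 19 at 24 h. Medians were then -0.31 for assembly factors, -0.12 for complex IV and -0.18 for the ATP synthase at 6 h, and at 12 h -0.36 for all members, -0.40 for assembly factors, -0.22 for complex IV and -0.41 for the ATP synthase. After cyclic loess (chosen after seeing the data) 9 were lower at 12 h, and assembly factors had -0.09, -0.27 and -0.35 at 3, 6 and 12 h.

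Without the experiment as a replicate block, 4 were lower at 12 h and 3 at 24 h (1906 and 1635 of all 22519 probe sets). At 24 h 1 was higher, and 0 at 3 and 6 h (929, 87 and 347 of all). At 12 h against 6 h and at 24 h against 12 h no member was called, and neither was any of the 22519 probe sets. With only the 4 arrays of each comparison and the block, 3 were lower and 2 higher at 3 h, 0 higher at 6 and at 12 h, 2 lower and 1 higher at 24 h, 3 lower at 12 h against 6 h and 1 higher at 24 h against 12 h. Without the intensity trend 3 were higher at 24 h and 1 at 24 h against 12 h (1750 and 110 of all). With plain _at probe sets, 0 were higher at 3, 6 and 12 h, 8 lower at 12 h, 5 lower and 4 higher at 24 h and 2 higher at 24 h against 12 h, and medians were -0.25 (assembly factors, 3 h), -0.30 (complex III, 12 h) and 0.14 (complex II, 24 h). With 1 probe set per gene, 0 were higher at 3, 6 and 12 h, 1 lower at 6 h, 6 lower and 4 higher at 24 h and 3 higher at 24 h against 12 h. With a filter on the linear mean (chosen after seeing the data), 0 were higher at 6 h (815 of all). Without both 24 h arrays, 1 was lower at 3 h, 4 at 6 h and 46 at 12 h (79, 2141 and 6365 of all). At 12 h 3 were higher (2856 of all), and 6 were lower at 12 h against 6 h (1748).

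Leaving out each array in turn, the members lower numbered 0 to 1 at 3 h, 1 to 4 at 6 h, 2 to 46 at 12 h, 3 to 46 at 24 h, 0 to 6 at 12 h against 6 h and 0 to 10 at 24 h against 12 h. Those higher numbered 0 to 1 at 3 h and at 6 h, 0 to 3 at 12 h, 1 to 50 at 24 h and 1 to 55 at 24 h against 12 h. Such swings in the lower counts were not confined to members at 12 h against 6 h and at 24 h against 12 h. There the fits with the most members lower also called more of all probe sets lower than the fit to all arrays. Medians at 1 h ranged over -0.09 to 0.12 for complex III, -0.05 to 0.18 for complex IV and -0.07 to 0.20 for ATP synthase. Medians at 3 h ranged over -0.11 to 0.06 for all members, -0.31 to -0.05 for complex I assembly factors, -0.10 to 0.09 for complex III, -0.12 to 0.07 for complex IV and -0.13 to 0.10 for ATP synthase. Medians at 6 h ranged over -0.51 to -0.33 for complex I assembly factors and -0.18 to 0.03 for ATP synthase. Medians at 12 h ranged over -0.28 to -0.05 for complex II. Medians at 24 h ranged over -0.27 to 0.29 for all members, -0.41 to -0.04 for complex I assembly factors, -0.47 to 0.23 for complex I, -0.20 to 0.06 for complex II, -0.08 to 0.42 for complex III, 0.00 to 0.44 for complex IV and -0.32 to 0.27 for ATP synthase. Cox7c (1459885_s_at) at 24 h vs 0 h had a log2 fold change of -0.07, which reversed to 0.99 without the 24 h array of experiment 1 and was -1.14 without that of experiment 2. MAS5.0 gives no depth, and signals near the array median are weakly measured.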
